A study of Mus musculus with 6 samples.

Results

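The genes described here are 47 genes of ribosome biogenesis and the nucleolus, chosen by gene name from the 18743 annotated genes that the libraries list. All 47 were found by their gene identifiers, and all 47 passed the filter on low counts, so none was left out before testing. They were grouped by role into RNA polymerase I transcription (6 genes), box C/D particles (4), box H/ACA particles (4), the small subunit processome (8), late maturation of the small subunit (5), maturation of the large subunit (14), abundant nucleolar proteins (5) and Myc. The libraries come from oligodendrocyte progenitor cells (OPCs), which divide and give rise to myelinating oligodendrocytes, taken from the cortex of neonatal wild-type C57BL/6 mice (labelled postnatal day 1) with magnetic beads against CD140 (PDGFRα) and grown for 3 days. In 3 samples the cells then received 50 µM hemin, the oxidised iron porphyrin released from haemoglobin, and in the other 3 vehicle, 0.25% DMSO, each for 12 h. No sample carried a genetic change, and the labels do not say whether replicates were separate cultures or litters, so the tests see only how far these libraries scatter, which may be technical scatter.

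Ribosomes are assembled in the nucleolus, where RNA polymerase I transcribes the ribosomal RNA precursor. Small nucleolar RNA particles modify that precursor, a large early complex called the small subunit processome folds and cuts it, and separate sets of factors mature the small (40S) and large (60S) subunits before and after export. The pathway is among the costliest of a dividing cell, and the transcription factor MYC is known to drive many of its genes.

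Annotated genes collected 6339966 to 6523639 expected counts per library. Each of the 8 OPC markers was listed in each library, and their summed FPKM (fragment counts scaled by the authors for transcript length and library depth) was 1290 ± 136 with vehicle and 490 ± 102 with hemin (SD, n = 3 per group), with 7 of the 8 called lower. Markers of other cells were present as well. Summed neuronal markers stood at 120 to 156 FPKM with vehicle and 69.4 to 105 with hemin (3 of 9 tested called lower), astrocyte markers at 456 to 547 and 379 to 513 (1 of 7 higher, 2 lower), microglial markers at 5.36 to 9.16 and 11.8 to 12.9 (1 of 5 tested higher), endothelial markers at 0.38 to 0.77 and 3.45 to 4.41 (3 of 3 tested higher, with Cldn5 at 0 in 2 vehicle libraries and 1 hemin library), mature oligodendrocyte markers at 31.2 to 52.3 and 25.6 to 36.4 (1 of 3 tested lower), and fibroblast and pericyte markers at 3.22 to 7.32 and 3.91 to 11.4 (0 of 4 tested called by edgeR, 0 at an unadjusted p below 0.05 and 0 by DESeq2). Leaving out 1 library changed some of these counts. The lower astrocyte calls went from 2 to 1 for vehicle replicate 1, vehicle replicate 2 or hemin replicate 2, the microglial call was lost for vehicle replicate 2, vehicle replicate 3 or hemin replicate 2, and the mature oligodendrocyte call for vehicle replicate 1 or hemin replicate 2. The part of these marker levels in the values that follow was not tested, and in such bulk samples fewer cells of a type and less RNA per cell cannot be told apart.

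Most of the genes stood higher with hemin, but by amounts that rarely reached a doubling. By edgeR's quasi-likelihood test with Benjamini-Hochberg adjustment over 12779 genes, 19 of the 47 were called higher and 3 lower at an adjusted p below 0.05. Over all genes tested, 16.2% were called higher and 15.7% lower, 31.9% in all. The median log2 fold change was 0.29 for the 47 genes and 0.00 for all genes tested, and 39 of the 47 had a value above 0. The 19 rises ran from 1.23-fold to 2.24-fold with a median of 1.72-fold, and 3 of them were at least 2-fold. Normalised CPM are counts scaled to library size and to the TMM normalisation factors used in the test. On these, the 3 hemin libraries lay wholly above the 3 vehicle libraries for 24 of the 47 genes and wholly below for 4. Over all genes tested the shares were 24.1% and 24.8%, 48.9% in all.

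The 25 genes that were not called had log2 fold changes from -0.25 to 0.49, 20 of them above 0. For 24 of these 25, the 95% interval of the change lay within a doubling or a halving, Ltv1 being the exception. Of the 22 calls, 15 held in all 13 alternative analyses, 14 of the rises and the fall of Ubtf. The counts of 19 and 3 became 15 and 3 when libraries were scaled by their totals alone. That scaling moved the median of all genes tested to -0.09 and the share of higher among all called genes from 50.8% to 39.9%. The 3 falls became 1 without vehicle replicate 1, 2 or 3, and the rises numbered 14 to 19 when any 1 library was left out.

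**Figure D1:**
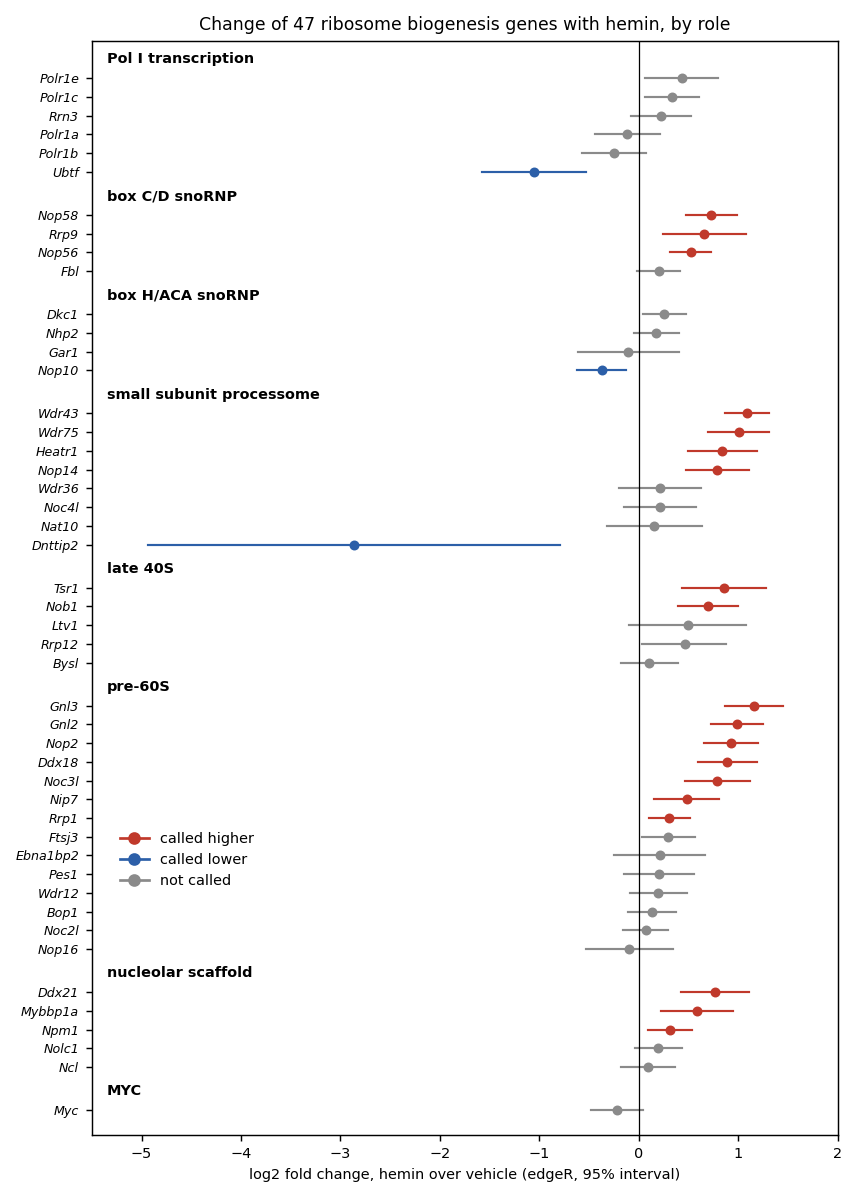
Log2 fold change of each of the 47 genes, hemin over vehicle (horizontal axis), with its 95% interval from edgeR, grouped by role and coloured by the call (n = 3 libraries per group). The calls to the right lie in the processome, subunit maturation, box C/D and nucleolar protein groups, whereas the polymerase I and box H/ACA groups hold 0 rises and 1 fall each. Over all genes tested 16.2% were called higher and 15.7% lower, so counts in 6 and 4 genes cannot set these 2 groups apart.

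The median log2 difference from the vehicle mean over the 47 genes was 0.43 in hemin replicate 1, 0.28 in replicate 2 and 0.23 in replicate 3, and -0.08, -0.02 and 0.11 in vehicle replicates 1 to 3. Over all genes tested these medians lay between 0.00 and 0.01. Of the 19 genes called higher, 10 had their highest hemin level in replicate 1 and 13 their lowest in replicate 3. Within the vehicle group, 40 of the 47 genes lay above the vehicle mean in replicate 3 and 9 in replicate 1, so the vehicle libraries also differed among themselves.

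**Figure D2:**
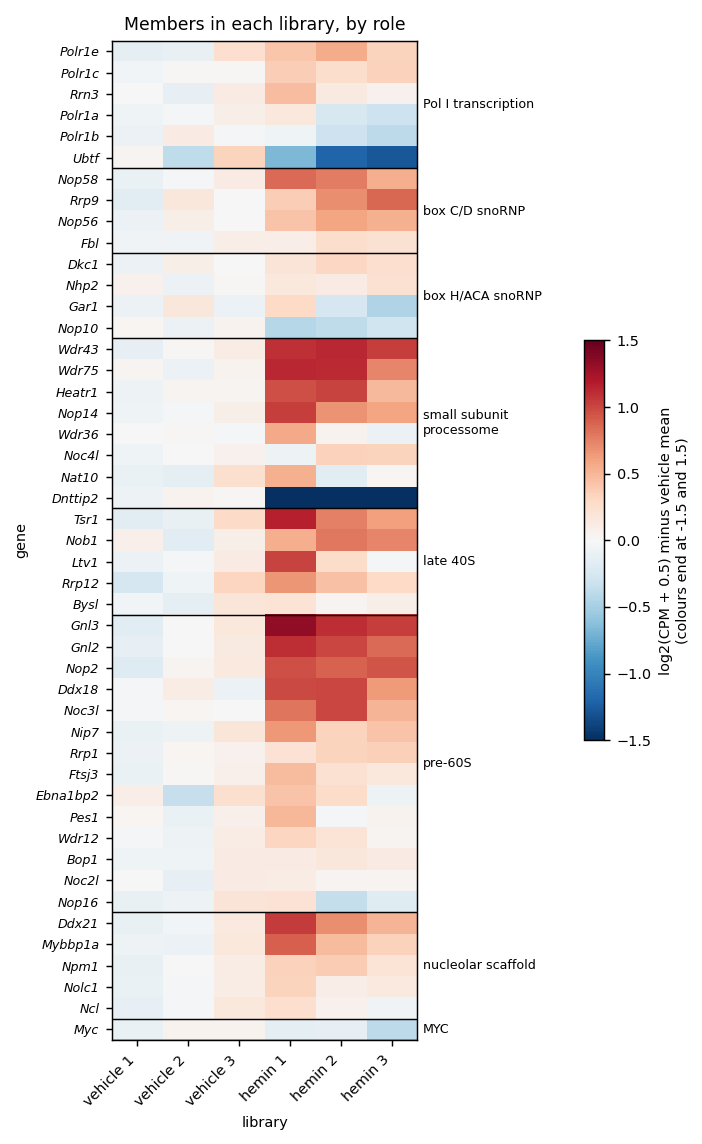
Each of the 47 genes (rows, by role) in each of the 6 libraries (columns), as log2(CPM + 0.5) minus the mean of the 3 vehicle libraries. Red blocks in the hemin columns mark the genes that rose, replicate 1 is often the deepest red, and Ubtf, Nop10 and Dnttip2 are blue in each hemin column.

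The 6 genes of polymerase I transcription among the 47 held no called rise. None of them was called higher by edgeR (2 at an unadjusted p below 0.05, 0 by DESeq2), and 1 fell. Over all genes tested 16.2% were called higher and 15.7% lower, so 6 genes are too few to set the group apart. Ubtf encodes UBF, the protein that coats active ribosomal RNA genes and recruits the polymerase. Its level was 20.3, 15.2 and 24.6 FPKM with vehicle and 11.4, 8.37 and 8.09 FPKM with hemin. The groups did not overlap, although the vehicle libraries were themselves far apart, and the fall was 2.08-fold (log2 fold change -1.05 ± 0.23, SE; edgeR adjusted p = 0.0114).

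Ubtf is listed as 4 transcripts, of which the form of 4593 bases held 65.4% of the gene's counts with vehicle and 75.6% with hemin. That transcript had 616, 452 and 572 expected counts with vehicle and 344, 213 and 316 with hemin. The next, of 4704 bases, had 217, 172 and 293 with vehicle and 129, 37.4 and 13.7 with hemin. So both main transcripts were lower in each hemin library than in any vehicle library, although the estimates for single transcripts share reads.

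The 4 polymerase subunits were not called in either direction. Polr1a, the catalytic large subunit, was at 14.97, 15.5 and 16.4 FPKM with vehicle and 16.2, 12.8 and 12.5 FPKM with hemin. The groups overlapped through hemin replicate 1 (log2 fold change -0.12, 95% interval -0.44 to 0.21, edgeR adjusted p = 0.556). Without that library Polr1a was called lower (log2 fold change -0.28, edgeR adjusted p = 0.0396, the lowest over its alternatives, which reached 0.897). Polr1b, the other large subunit, stood at 8.78 ± 0.718 and 7.11 ± 0.622 FPKM, Polr1c, shared with polymerase III, at 19.0 ± 0.400 and 23.0 ± 0.876 FPKM, and Polr1e, a subunit specific to polymerase I, at 5.30 ± 0.787 and 6.92 ± 0.565 FPKM (edgeR adjusted p = 0.198, 0.0664 and 0.0744). For Polr1c and Polr1e each hemin library lay above each vehicle library. Polr1e passed without vehicle replicate 3 (edgeR adjusted p = 0.0408, over a range to 0.21). Rrn3, which carries the polymerase to the promoter, was at 37.1 ± 2.83 and 41.7 ± 4.90 FPKM (edgeR adjusted p = 0.223).

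The 2 families of small nucleolar RNA particles differed in their counts of calls, a difference that was not tested. Box C/D particles guide methylation of ribosomal RNA, and 3 of their 4 genes rose, where 16.2% were called higher over all genes tested. Nop58, a core scaffold protein, was at 58.2, 62.0 and 67.1 FPKM with vehicle and 104, 104 and 90.6 FPKM with hemin. Each hemin library lay above each vehicle library, a 1.66-fold rise (log2 fold change 0.73 ± 0.11, edgeR adjusted p = 0.00326). Its partner Nop56 rose 1.43-fold, from 60.1, 68.3 and 62.5 to 79.5, 93.3 and 91.1 FPKM (edgeR adjusted p = 0.00561). Rrp9, the protein specific to the U3 particle that starts small subunit processing, rose 1.58-fold from 10.2 ± 1.25 to 15.7 ± 3.16 FPKM (edgeR adjusted p = 0.0276). The Rrp9 call was lost with library totals alone (edgeR adjusted p = 0.0514), on leaving out any 1 vehicle library (0.0985, 0.0537 and 0.0718 for replicates 1 to 3) and on leaving out hemin replicate 2 or 3 (0.0766 and 0.0743), over a range from 0.0117 to 0.0985.

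Fbl, the methyltransferase fibrillarin, did not pass. It was at 89.9, 90.1 and 97.9 FPKM with vehicle and 91.8, 108 and 107 FPKM with hemin. The groups overlapped through hemin replicate 1, and the 95% interval of the log2 fold change ran from -0.02 to 0.41 (edgeR adjusted p = 0.15).

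Box H/ACA particles guide pseudouridylation and also hold telomerase RNA. None of their 4 core genes was called higher by edgeR (1 at an unadjusted p below 0.05, 0 by DESeq2), and their summed level was 184, 179 and 182 FPKM with vehicle and 165, 167 and 176 FPKM with hemin. With 16.2% called higher over all genes tested, 4 genes are too few for 0 rises to set them apart. Dkc1, the pseudouridine synthase dyskerin, was at 24.7, 27.99 and 25.9 FPKM with vehicle and 27.9, 31.5 and 30.9 FPKM with hemin (edgeR adjusted p = 0.0744, log2 fold change 0.25 ± 0.09). Dkc1 passed without hemin replicate 1 (edgeR adjusted p = 0.0481, over a range to 0.229). Nhp2, an RNA-binding core protein, stood at 62.3 ± 3.30 and 67.6 ± 4.03 FPKM, and Gar1, the subunit that controls release of the substrate, at 17.7 ± 2.01 and 15.7 ± 3.93 FPKM (edgeR adjusted p = 0.215 and 0.741). The log2 fold change of Gar1, -0.11, became 0.04 with hemin replicate 3 left out.

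Nop10, the small protein that bridges dyskerin and Nhp2, went the other way. It was at 77.6, 71.8 and 77.4 FPKM with vehicle and 51.9, 55.8 and 60.03 FPKM with hemin, groups that did not overlap, a 1.30-fold fall (edgeR adjusted p = 0.0327). The call was lost on leaving out vehicle replicate 1, 2 or 3 (edgeR adjusted p = 0.132, 0.0794 and 0.106) or hemin replicate 2 (0.0909), and under a replicate block (0.0581), over a range from 0.00836 to 0.132.

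**Figure D3:**
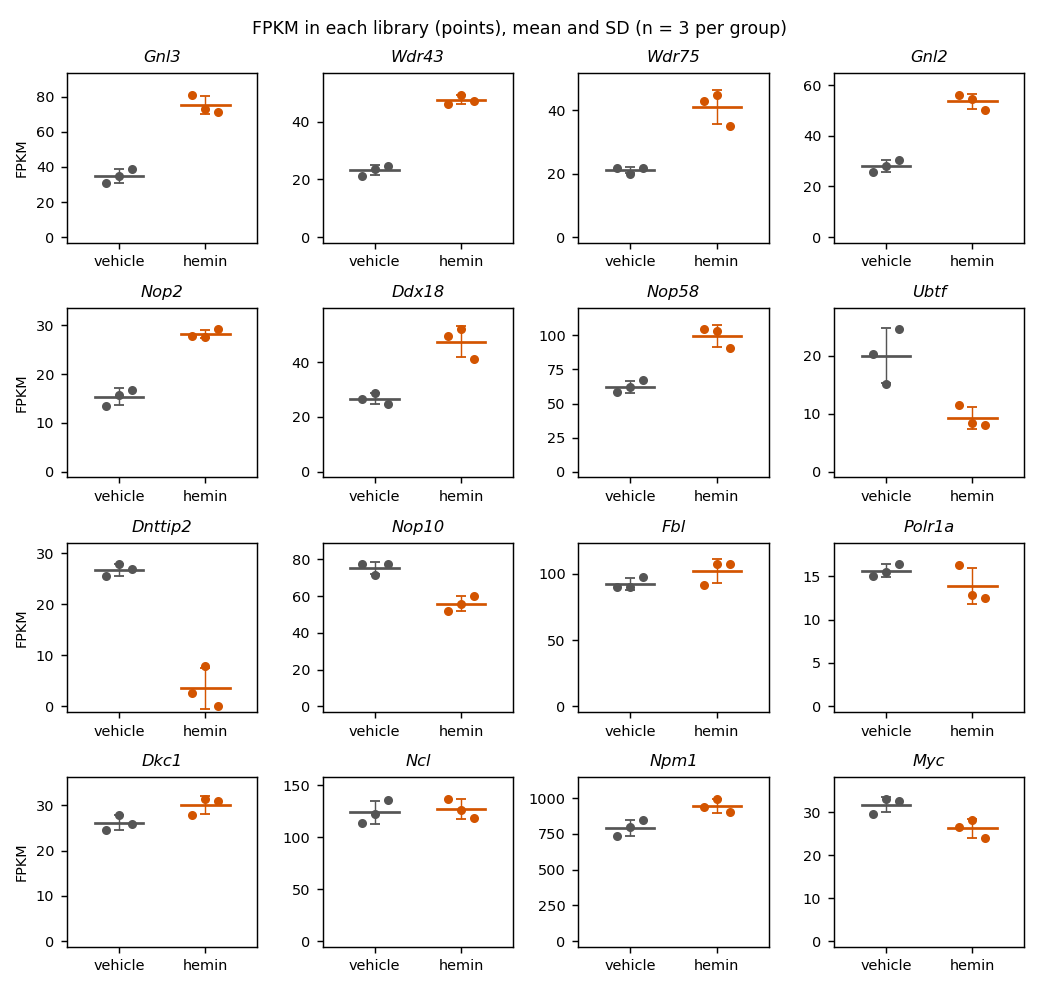
FPKM (vertical axes, each from 0) of 16 of the genes in the 3 vehicle and 3 hemin libraries, left to right replicate 1 to 3, with the mean as a line and the SD as a bar. The groups are apart in the first 10 panels, Gnl3 to Nop10, whereas those of Fbl, Polr1a, Dkc1 and Ncl overlap on this scale.

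Genes of the small subunit processome gave some of the largest rises. Of 8 genes, 4 rose and 1 fell, beside 16.2% called higher and 15.7% lower over all genes tested. Wdr43, a subunit of the subcomplex that binds the start of the ribosomal RNA precursor, had the smallest p of the 47 genes. Its level was 21.3, 23.7 and 24.7 FPKM with vehicle and 46.2, 49.4 and 47.3 FPKM with hemin. The libraries of each group lay close together and far from the other group, a 2.12-fold rise (log2 fold change 1.09 ± 0.09, edgeR adjusted p = 0.000462).

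Wdr75, of the same subcomplex, rose 2.01-fold, from 21.8, 19.99 and 21.6 to 43.0, 44.9 and 34.9 FPKM, with hemin replicate 3 the lowest of its group (edgeR adjusted p = 0.00179). Heatr1, a very large scaffold of that subcomplex, rose 1.79-fold, from 8.58, 9.28 and 9.12 to 16.3, 17.7 and 12.5 FPKM (edgeR adjusted p = 0.00571). Nop14, another processome protein, rose 1.72-fold, from 19.2, 19.8 and 20.9 to 38.3, 31.0 and 29.97 FPKM (edgeR adjusted p = 0.00546). These 4 calls held in all 13 alternatives.

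The other 3 processome genes with small changes were not called. Wdr36, Noc4l and the RNA acetyltransferase Nat10 had log2 fold changes of 0.21, 0.21 and 0.15 and overlapping groups (edgeR adjusted p = 0.409, 0.331 and 0.603). With hemin replicate 1 left out the sign turned for Wdr36 (-0.02) and Nat10 (-0.08). Dnttip2, whose yeast counterpart belongs to the processome, was at 25.4, 27.9 and 26.8 FPKM with vehicle and 2.72, 7.88 and 0 FPKM with hemin. Each hemin library was far below each vehicle library, but they differed several-fold among themselves (log2 fold change -2.86 ± 0.89, edgeR adjusted p = 0.0436).

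Whether the value of 0 for Dnttip2 in hemin replicate 3 is a failed estimate of the authors' counting was not tested. With that library left out, the log2 fold change of Dnttip2 was -2.28 (edgeR adjusted p = 0.00936). Of 8457 tested genes with a mean of at least 100 counts, 43 (0.508%) were listed at 0 in 1 library or more. The call was lost with DESeq2 (adjusted p = 0.192), on leaving out any 1 vehicle library (edgeR adjusted p for replicates 1 to 3 of 0.102, 0.104 and 0.091) or hemin replicate 1 (0.0837), and under a replicate block (0.0513), over a range from 0.00936 to 0.192.

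Genes of late small subunit factors rose in part, 2 of 5, where 16.2% were called higher over all genes tested. These 5 genes are too few to set the group apart. Nob1, the nuclease that makes the final cut of the small subunit RNA, was at 19.1, 16.2 and 19.0 FPKM with vehicle and 24.6, 30.4 and 29.9 FPKM with hemin. That is a 1.62-fold rise between groups that did not overlap (edgeR adjusted p = 0.00683). Tsr1, a factor resembling a GTPase that keeps the immature subunit from translating, was at 16.4, 17.1 and 22.3 FPKM with vehicle and 38.6, 30.2 and 28.2 FPKM with hemin, a 1.81-fold rise (edgeR adjusted p = 0.0115). On the opposite strand, exons of Srr cover 32.3% of the exon bases of Tsr1 in GENCODE vM21, and reads of the 2 genes cannot be told apart there without strand.

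Ltv1, an export adaptor, was at 23.8, 24.7 and 27.0 FPKM with vehicle and 47.2, 29.7 and 24.4 FPKM with hemin. Its excess came from hemin replicate 1, replicate 3 lay within the vehicle range, and it did not pass (edgeR adjusted p = 0.181). Rrp12, another export factor, stood at 5.92 ± 1.18 and 7.85 ± 0.767 FPKM (edgeR adjusted p = 0.0933) and passed without vehicle replicate 3 (edgeR adjusted p = 0.0328, over a range to 0.245). Bysl, an early partner of these factors, was at 12.5, 11.7 and 14.3 FPKM with vehicle and 13.7, 12.8 and 13.5 FPKM with hemin (log2 fold change 0.10, 95% interval -0.18 to 0.39, edgeR adjusted p = 0.546).

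Among the 14 genes of large subunit maturation, 7 rose and none fell by edgeR (0 lower at an unadjusted p below 0.05 and 0 by DESeq2), with a median log2 fold change of 0.30. The shares called over all genes tested were 16.2% higher and 15.7% lower. The strongest rises of the 14 were those of nucleolar GTPases. Gnl3, nucleostemin, known from stem and progenitor cells, had the largest rise of the 47 genes. It was at 31.0, 35.1 and 38.5 FPKM with vehicle and 81.2, 73.2 and 71.2 FPKM with hemin, with a wide gap between the groups (2.24-fold, log2 fold change 1.16 ± 0.12, edgeR adjusted p = 0.000941). Gnl2, a GTPase that prepares the large subunit for export, rose 1.99-fold, from 25.7, 27.97 and 30.3 to 56.2, 54.3 and 50.2 FPKM (edgeR adjusted p = 0.00112).

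Nop2, a ribosomal RNA methyltransferase also known as a proliferation antigen, was at 13.4, 15.8 and 16.8 FPKM with vehicle and 27.9, 27.5 and 29.2 FPKM with hemin. The hemin libraries were close to each other and all above the vehicle group (1.91-fold, edgeR adjusted p = 0.00167). Ddx18, an RNA helicase, rose 1.85-fold, from 26.3, 28.8 and 24.7 to 49.4, 51.9 and 41.0 FPKM (edgeR adjusted p = 0.0027). Noc3l, an assembly factor, rose 1.73-fold, from 9.26 ± 0.197 to 15.5 ± 2.52 FPKM (edgeR adjusted p = 0.00588).

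Nip7 and Rrp1, the remaining 2 of the 7, rose by less and less firmly. Nip7, at 9.64 ± 0.993 and 12.9 ± 1.17 FPKM, rose 1.39-fold (edgeR adjusted p = 0.0374), and its call was lost on leaving out vehicle replicate 1 or 2 (0.12 and 0.114), without hemin replicate 1, 2 or 3 (0.0681, 0.0538 and 0.0653), with totals alone (0.0654), with no filter (0.0661) and with the block (0.0613), over a range from 0.0214. Rrp1, at 93.2 ± 4.75 and 111 ± 9.42 FPKM, rose 1.23-fold (edgeR adjusted p = 0.0338). It failed in 10 of 13 alternatives, which include leaving out any 1 vehicle library (edgeR adjusted p for replicates 1 to 3 of 0.138, 0.0985 and 0.0625), hemin replicate 2 (0.103) and hemin replicate 3 (0.0759), over a range from 0.0117 to 0.138.

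Pes1, Bop1 and Wdr12 form the PeBoW complex, which is needed to process the large subunit RNA, and none of its 3 genes was called by edgeR (0 at an unadjusted p below 0.05 and 0 by DESeq2). As 31.9% were called in either direction over all genes tested, 3 genes are too few for 0 calls to set the complex apart. Pes1 was at 29.5, 27.2 and 30.2 FPKM with vehicle and 38.1, 27.8 and 29.7 FPKM with hemin, with only hemin replicate 1 above the vehicle range (log2 fold change 0.20, 95% interval -0.15 to 0.55, edgeR adjusted p = 0.357). Bop1 stood at 20.7 ± 1.35 and 22.0 ± 0.912 FPKM, and Wdr12 at 12.8 ± 0.750 and 14.2 ± 0.945 FPKM (edgeR adjusted p = 0.36 and 0.269). Within Wdr12, a transcript of 2856 bases was listed at 0 in the 3 vehicle libraries and had 42.4, 49.9 and 81.3 expected counts in the hemin libraries, 15.7% of the gene's counts there. The main transcript, of 2946 bases, had 291, 272 and 302 expected counts with vehicle and 309, 279 and 177 with hemin. The share of the minor form thus differed between the groups, while the sum over the gene moved little.

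Ftsj3, another methyltransferase, stood at 30.9 ± 1.80 and 36.5 ± 2.99 FPKM, Noc2l at 33.9 ± 2.54 and 34.2 ± 0.334 FPKM and Ebna1bp2 at 10.2 ± 2.02 and 11.4 ± 1.62 FPKM (edgeR adjusted p = 0.0853, 0.642 and 0.46). The log2 fold change of Noc2l, 0.07, became -0.03 with totals alone. Nop16 was at 13.9, 14.3 and 16.9 FPKM with vehicle and 16.2, 11.2 and 13.1 FPKM with hemin, overlapping groups with a log2 fold change of -0.10 whose sign turned without vehicle replicate 3 or hemin replicate 2 (0.02 in each case).

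Of the 5 genes for abundant proteins that organise the nucleolus, 3 rose. The share called higher over all genes tested was 16.2%. Those 3 rises became 1 without vehicle replicate 1, without vehicle replicate 2 or under a replicate block. Npm1, nucleophosmin, a histone and ribosome chaperone, alone made up 36.1% of the summed FPKM of the 47 genes with vehicle and 35.3% with hemin. It was at 736, 796 and 846 FPKM with vehicle and 936, 998 and 904 FPKM with hemin. The groups were apart but close, a 1.24-fold rise (edgeR adjusted p = 0.0395). The rise did not pass in 10 of 13 alternatives, which include leaving out vehicle replicate 1 (edgeR adjusted p = 0.149), vehicle replicate 2 (0.117), hemin replicate 1 (0.0528) or hemin replicate 2 (0.116), totals alone (0.104) and the block (0.0834), over a range from 0.0103.

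Ncl, nucleolin, an RNA-binding protein of the same compartment, was at 114, 122 and 136 FPKM with vehicle and 137, 126 and 119 FPKM with hemin. These ranges overlapped almost fully (log2 fold change 0.09, 95% interval -0.18 to 0.36, edgeR adjusted p = 0.591), and the sign turned with totals alone. Ddx21, a helicase that links polymerase I transcription to processing, was at 46.5, 48.8 and 54.6 FPKM with vehicle and 95.9, 78.6 and 70.8 FPKM with hemin, a 1.70-fold rise (edgeR adjusted p = 0.00778). Mybbp1a, a nucleolar regulator of transcription, rose 1.5-fold, from 50.4 ± 4.49 to 72.7 ± 12.6 FPKM (edgeR adjusted p = 0.0262), a call lost on leaving out vehicle replicate 1 or 2 (0.0805 and 0.0808) and with the block (0.0519), over a range from 0.00265. Nolc1, a chaperone of the small nucleolar particles, stood at 38.3 ± 2.60 and 42.3 ± 2.43 FPKM (edgeR adjusted p = 0.184).

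Myc was not called in either direction. Its level was 29.7, 33.2 and 32.5 FPKM with vehicle and 26.6, 28.3 and 23.9 FPKM with hemin. Each hemin library lay below each vehicle library, but the difference did not pass (log2 fold change -0.22, 95% interval -0.48 to 0.04, edgeR adjusted p = 0.17, over a range from 0.0553 to 0.402). Of 11 tested genes of the MYC network, the partners and competitors of MYC, 3 rose and 2 fell, each within 2 genes of what the 16.2% and 15.7% called over all genes tested would give, so the counts say nothing particular to the network. The 2 falls became 1 when vehicle replicate 1, 2 or 3 or hemin replicate 2 was left out, and the 3 rises 2 to 4 over the libraries left out (2 for vehicle replicate 1 and hemin replicate 2).

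Mycl, a MYC relative, fell from 7.04, 7.28 and 6.71 to 1.77, 2.05 and 3.26 FPKM (log2 fold change -1.54 ± 0.22, edgeR adjusted p = 0.0027). Mxd1, which competes with MYC for its partner MAX and represses, rose from 2.96, 3.44 and 3.30 to 5.35, 5.53 and 6.03 FPKM (log2 fold change 0.85 ± 0.13, edgeR adjusted p = 0.00344), and Mlx, the partner in a parallel network, from 14.0 ± 0.822 to 21.0 ± 2.67 FPKM (edgeR adjusted p = 0.0098). Mlxip fell from 5.62 ± 0.106 to 4.06 ± 0.411 FPKM (edgeR adjusted p = 0.0333), a call lost on leaving out any 1 vehicle library (0.103, 0.102 and 0.0735), hemin replicate 2 (0.105) or hemin replicate 3 (0.0816), over a range from 0.00749 to 0.105. Mycn stood at 2.86 ± 0.215 and 4.02 ± 0.466 FPKM and Max at 30.3 ± 2.08 and 36.0 ± 3.15 FPKM (edgeR adjusted p = 0.0537 and 0.0806).

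The site MYC and MAX are known to prefer, CACGTG, which reads the same on both strands, was searched in RefSeq promoter windows of assembly GRCm38.p6, from 250 bases before to 50 bases after the annotated start. Of the 47 genes 40 had a window, and 7 of these 40 (17.5%) held the site, compared with 8.09% of 27025 genes with windows of the same length. The 27025 were not limited to the 12779 genes tested, whereas all of the 47 passed that filter, so the 2 sets are unlike. The 7 were Wdr43, Nop2, Tsr1 and Mybbp1a, which were called higher, and Ltv1, Pes1 and Rrn3, which were not called. So 4 of the 17 genes called higher with a window and 3 of the 20 not called had a match, while Gnl3, with the largest rise of the 47, had a window with no match. A match describes letters only. Windows are shown for Wdr43 and Nop2, the matching genes with the largest rises, and for Rrn3, the 1 gene with 2 matches, 5′ to 3′ on the plus strand with the site in capitals. They lie at chr17:71615965-71616264, chr6:125131633-125131932 and chr16:13780449-13780748.
Wdr43: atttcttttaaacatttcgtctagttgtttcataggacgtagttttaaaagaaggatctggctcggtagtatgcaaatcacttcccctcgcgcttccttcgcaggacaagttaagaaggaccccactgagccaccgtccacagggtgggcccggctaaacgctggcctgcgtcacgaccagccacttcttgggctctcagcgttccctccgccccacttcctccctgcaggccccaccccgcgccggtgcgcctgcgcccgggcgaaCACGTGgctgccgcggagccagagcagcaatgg
Nop2: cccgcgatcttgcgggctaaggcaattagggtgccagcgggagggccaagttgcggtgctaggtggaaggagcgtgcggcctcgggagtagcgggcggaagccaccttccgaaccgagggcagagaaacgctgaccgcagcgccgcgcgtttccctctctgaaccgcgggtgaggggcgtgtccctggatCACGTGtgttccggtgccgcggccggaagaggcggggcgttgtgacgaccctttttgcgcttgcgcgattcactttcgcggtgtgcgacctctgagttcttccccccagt
Rrn3: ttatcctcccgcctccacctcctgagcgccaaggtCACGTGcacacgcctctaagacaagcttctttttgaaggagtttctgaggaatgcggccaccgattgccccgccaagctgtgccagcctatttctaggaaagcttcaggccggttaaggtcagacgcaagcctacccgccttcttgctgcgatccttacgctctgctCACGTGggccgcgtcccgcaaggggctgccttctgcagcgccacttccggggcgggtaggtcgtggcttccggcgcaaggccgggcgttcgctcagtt
In Wdr43 the site begins 17 bases after the start, in Nop2 60 bases before it, and in Rrn3 215 and 48 bases before it.

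Other genes of the pathway came from a list of 155 names outside the 47. Of 150 tested, 54 rose and 3 fell, with a median log2 fold change of 0.25. The shares called over all genes tested were 16.2% higher and 15.7% lower. The 3 falls became 0 without vehicle replicate 1, vehicle replicate 2 or hemin replicate 2 (by edgeR, with 2, 4 and 5 genes lower at an unadjusted p below 0.05, and 2 falls by DESeq2 with all libraries), 1 without vehicle replicate 3 and 7 without hemin replicate 1. The rises lay mainly in the large subunit group, 28 of 51 tested, and in the processome group, 18 of 41. With 1 library left out the 28 became 19 to 29, with 19 for vehicle replicate 2. The 18 became 11 without vehicle replicate 1 or vehicle replicate 2. Nmd3, the adaptor that exports the large subunit, was at 24.6, 24.6 and 27.2 FPKM with vehicle and 58.1, 62.7 and 59.9 FPKM with hemin (edgeR adjusted p = 0.000278, log2 fold change 1.30 ± 0.10). Ppan, an early large subunit factor, went from 12.0, 12.3 and 12.8 to 28.9, 31.1 and 30.4 FPKM (log2 fold change 1.34 ± 0.11, edgeR adjusted p = 0.000378). In the processome, Utp4, of the subcomplex that holds Wdr43, went from 11.8, 11.6 and 14.0 to 27.7, 32.2 and 32.1 FPKM (log2 fold change 1.35 ± 0.12, edgeR adjusted p = 0.000532). Utp11, a later processome protein, went from 37.0 ± 1.80 to 69.9 ± 5.27 FPKM (edgeR adjusted p = 0.00127). In these genes each hemin library lay above each vehicle library.

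**Figure D4:**
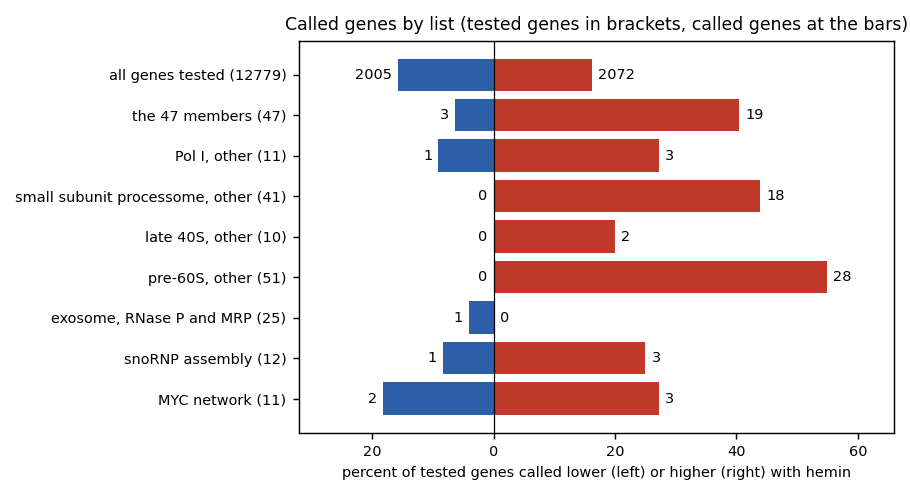
Percent of the tested genes of each list that edgeR called lower (left) or higher (right) with hemin, with the number called beside each bar and the number tested in brackets. The bars to the right are longest for the large subunit and processome lists. The list of exosome and RNase genes has 0 rises of 25, beside 16.2% called higher over all genes tested.

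The remaining lists of the pathway are smaller or had fewer calls. Among 11 other polymerase I genes 3 rose. With 16.2% called higher over all genes tested, 11 genes are too few for 3 rises to set the list apart. Of these, Taf1a is a subunit of the factor that selects the ribosomal promoter. It was at 3.50, 3.32 and 3.42 FPKM with vehicle and 8.20, 7.97 and 7.61 FPKM with hemin. Its log2 fold change was 1.27 ± 0.15 (edgeR adjusted p = 0.00129). Taf1d, of the same factor, rose by a log2 fold change of 0.78 (edgeR adjusted p = 0.0145), a call lost on leaving out vehicle replicate 1 (0.0539). Polr2f, a subunit that the polymerases share, fell by a log2 fold change of -0.51 (edgeR adjusted p = 0.0411), a call lost on leaving out any 1 of the vehicle libraries (0.101, 0.115 and 0.129) or hemin replicate 1 or 2 (0.052 and 0.109).

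Of 10 other late small subunit factors 2 rose, the kinases Riok2 and Riok3 (log2 fold changes 0.83 and 0.61, edgeR adjusted p = 0.00826 and 0.00382), a share near the 16.2% over all genes tested. Of 12 genes that assemble small nucleolar particles 3 rose, among them Naf1 and Nufip1 (log2 fold changes 0.56 and 0.68, edgeR adjusted p = 0.00549 and 0.00778). These 12 genes are too few for 3 rises to set the list apart from the 16.2% over all genes tested. Coil, coilin of the Cajal body, fell by a log2 fold change of -0.92 (edgeR adjusted p = 0.0248), a call lost on leaving out vehicle replicate 1 (0.0777), vehicle replicate 2 (0.0728), hemin replicate 2 (0.0552) or hemin replicate 3 (0.0636).

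None of the 25 genes of the RNA exosome, RNase P and RNase MRP, which trim and cut precursor RNAs, was called higher by edgeR (3 at an unadjusted p below 0.05, 0 by DESeq2), and their median log2 fold change was -0.02. For comparison, 16.2% were called higher and 15.7% lower over all genes tested. Rpp25, an RNase P subunit, was called lower (log2 fold change -1.20, edgeR adjusted p = 0.036), but the call was lost on leaving out any 1 of the 6 libraries (0.0546 to 0.142), with DESeq2 (adjusted p = 0.0994) and under a replicate block (0.0716). Other settings called more of the 25 lower, 3 with totals alone and 4 with limma at each pseudocount, and the median became -0.12 with totals alone and -0.10 without hemin replicate 1.

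Some of these counts may hold reads of neighbours or copies. In GENCODE vM21, 18 of the 47 genes share exon bases with another gene that is not a small RNA, and whether the libraries keep strand is not stated in the labels. For Noc2l and Samd11 the shared part is 20.9% of the exon bases of Noc2l, and for Bysl and Ccnd3 9.4% of those of Bysl. Fbl, Nop56, Npm1, Ddx18, Ddx21, Pes1 and Wdr12, 7 of the 47, have a copy elsewhere of at least 95% identity over at least 200 bases, so their values are less certain than the others.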

How the data were processed

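RNA-seq libraries of OPCs, 3 with vehicle and 3 with hemin, were analysed. Per the file headers, the authors deposited expected counts and FPKM for each annotated transcript of each library. The submitters' processing notes list Bowtie 0.12.2 and RSEM, and, without saying what each was used for, builds mm8 and mm9. Transcripts were summed per gene, giving 18743 genes, of which 18711 matched a symbol in a RefSeq gene table, and expected counts were rounded. Genes were filtered with filterByExpr, scaled by TMM and tested with the quasi-likelihood test of edgeR 4.0.16 in R 4.3.3, two-sided, over 12779 genes and all 6 libraries with no covariate, called at a Benjamini-Hochberg adjusted p below 0.05. The script was tested on simulated data. Means carry the SD over 3 libraries, and fold changes their SE.

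Alternatives were DESeq2 1.42.0, library totals without TMM, no filter, limma 3.58.1 on log2(FPKM + 1, 0.1 or 0.5), the replicate number as a block, and leaving out each library. The gene groups and lists were chosen with earlier results of these data known. Genes were named by rule: the 8 largest called changes in each direction, the smallest p and the strongest opposite change per role, genes listed at 0, a set of key genes whatever their values, and the 2 smallest p in each direction of the other lists. Further genes among the 47 are given so that each is accounted for, and Mycn, Max and Snu13 were named outside the rule. Of the other list, 151 of 155 names matched an identifier. Promoter windows are from RefSeq (GRCm38.p6), and exon overlaps from GENCODE vM21. Tables of unannotated transcripts were not used here.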

Additional observations from a re-analysis of the deposited data

How the results depend on the processing

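Over 13 alternatives the median log2 fold change of the 47 genes ran from 0.20 to 0.35. The 19 rises became 19 with DESeq2, 15 with library totals alone, 16 with no filter, 17 with limma at each pseudocount and 14 to 19 without any 1 library. The 3 falls became 2 with DESeq2 and 1 to 3 without any 1 library. Among the other pathway genes, the 54 rises became 36 to 53 and the 3 falls 0 to 7 without any 1 library. Those falls numbered 9 with totals alone and 10 with limma at each pseudocount, and their median of 0.25 became 0.16 with totals alone. The log2 fold change of Ncl turned to -0.0045 with totals alone and -0.0012 without hemin replicate 1, and that of Nop16 to 0.02 without vehicle replicate 3 or hemin replicate 2. Without any 1 library these 2 values ran from -0.0012 to 0.18 and from -0.28 to 0.02. Uncalled Wdr36, Nat10, Gar1 and Noc2l also turned sign in 1 alternative each. The causes were not tested.

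With the replicate number as a block, 16 of the 47 genes rose and 1 fell, and 48 of the other genes rose and 2 fell. Deviations of same-numbered libraries correlated at 0.062, 0.108 and 0.162, so the numbers were not taken to pair the samples, although each library correlated best with its own number, a hint from the data and not the design. Genes with few counts, and values listed at 0, have the least certain changes.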
